A study of Mus musculus with 11 samples.

Results

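The nuclei described here were selected on their own transcripts, as those carrying Enpp6 together with other genes of oligodendrocytes that have recently begun to differentiate. A nucleus was taken when it had at least 500 detected genes and under 5% mitochondrial transcripts, at least 3 unique molecular identifiers (UMIs, each standing for 1 captured transcript) over Enpp6, Bcas1, Tcf7l2, Itpr2, Bmp4 and Fyn with at least 2 of them from Enpp6, at most 1 UMI of the progenitor gene Pdgfra, and under 0.2% of its UMIs from the granule neuron genes Gabra6, Fat2, Chn2 and Etv1. This rule found 2667 nuclei, 1.43% of the 186863 nuclei within the quality limits, and they are called Enpp6-gated nuclei below. Because these genes chose the nuclei, their levels in them are given as a description. The working label for the set was newly formed oligodendrocytes, and most of its nuclei did not carry the profile of that label, as set out below.

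The 11 libraries came from single-nucleus RNA sequencing of the cerebellum and brainstem of 1 hemisphere, pooled with the C1 to C2 segments of the cervical cord, of male mice aged 8 to 12 weeks. Nuclei were sorted on a DNA dye with no exclusion of doublets by scatter. The comparison asked what loss of Il12rb2, a chain of the interleukin-12 receptor, changes in experimental autoimmune encephalomyelitis (EAE). All mice carried floxed Il12rb2 alleles (fl), and the NestinCre mice expressed Cre under control of Nestin, a gene that precursors of neurons, astrocytes and oligodendrocytes use, so that the deletion was not limited to the nuclei described. EAE was induced with the myelin peptide MOG35-55 in complete Freund's adjuvant and with pertussis toxin, and tissue was taken on day 10. There were 4 fl EAE libraries, 4 NestinCre EAE libraries, 2 fl naive libraries (numbered 2 and 3) and 1 NestinCre naive library (numbered 2), and naive mice were not immunized. By their labels they fall into 3 sequencing runs. EAE replicates 1 to 3 of either genotype belonged to run 1, EAE replicate 4 of either genotype shared run 2 with fl naive 2, and the other naive libraries formed run 3, so that run 2 alone held both states. The study counts its EAE replicates as independent animals, but the labels tie no library to an animal, so p-values measure the spread between these libraries. In the study's description a naive library sequenced together with EAE libraries of both genotypes, which by the runs is fl naive 2, served only as an internal control between sequencing experiments, and whether it shares its source with another naive library is not given in the sources used here.

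Oligodendrocyte progenitors carry the growth factor receptor Pdgfra and divide. When they stop dividing they pass through a premyelinating stage marked by Enpp6, a choline phosphodiesterase, by Bcas1, a protein of oligodendrocytes beginning to ensheathe axons, by the Wnt pathway transcription factor Tcf7l2 and by Itpr2, a calcium release channel. They then turn on the genes of myelin such as Mog, Mag and Mobp. Only some of the cells that enter the premyelinating stage survive to myelinate.

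Libraries held between 40761007 and 86063464 UMIs in 13120 to 22951 barcodes. The median Enpp6-gated nucleus had 3174 to 4933 UMIs, depending on the library, against 1777 to 2910 in nuclei of a mature gate and 2483 to 5369 in nuclei of a progenitor gate. The mature gate took nuclei with at least 3 UMIs of Mog, Mag and Mobp together making up at least 0.1% of UMIs and with at most 1 UMI each of Enpp6 and Pdgfra, and it held 18607 nuclei. The progenitor gate took nuclei with at least 2 UMIs of Pdgfra and at most 1 of Enpp6 and of the fibroblast genes Col1a2 and Dcn together, and it held 700 nuclei. Any pair of libraries shared 47 to 140 barcode sequences, or 0.358% to 0.692%, and 1 barcode of an Enpp6-gated nucleus was shared over all pairs. Levels below are CPM, the UMIs of a gene summed over the nuclei of a set within a library and scaled to the same UMI total everywhere, and they are compared within a gene only.

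In the fl EAE libraries 1 to 4, Enpp6-gated nuclei made up 1.15%, 0.915%, 1.87% and 1.16% of all nuclei. In the NestinCre EAE libraries 1 to 4 they made up 0.756%, 0.772%, 1.25% and 1.31%. The EAE groups overlapped, with the lowest values in NestinCre EAE 1 and 2 and the highest in fl EAE 3. The fl naive libraries 2 and 3 stood at 2.38% and 1.83% and the NestinCre naive library at 2.04%. The naive libraries were therefore above every EAE library except fl EAE 3. The exact 95% interval of a single library's share, which covers counting error only, was 0.616% to 0.918% in NestinCre EAE 1 and 2.17% to 2.60% in fl naive 2.

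Read against the oligodendrocyte lineage alone, meaning the 3 gates together, the share was 11.6%, 10.3%, 12.4% and 17.8% in fl EAE 1 to 4. It was 7.80%, 7.99%, 10.9% and 8.47% in NestinCre EAE 1 to 4, and 3 of these 4 libraries lay below all fl EAE libraries. It was 13.2% and 16.6% in fl naive 2 and 3 and 19.5% in the NestinCre naive library. All EAE libraries were below the naive ones except fl EAE 4, a library in which the mature gate held only 922 nuclei. That library was also the deepest, with a median of 4933 UMIs in its Enpp6-gated nuclei, and its place after thinning to equal depth is given below.

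**Figure D1:**
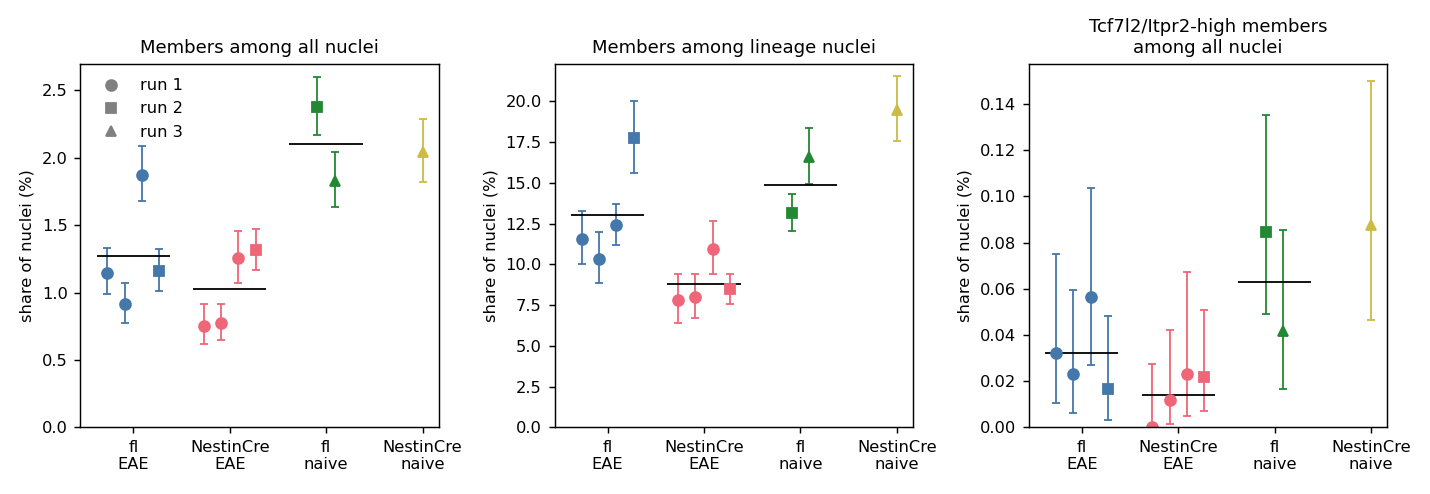
Share of Enpp6-gated nuclei (members) per library, in percent, among all nuclei (left) and among oligodendrocyte lineage nuclei (middle), and share of the Tcf7l2/Itpr2-high nuclei among all nuclei (right). Points are libraries with exact 95% binomial intervals, shapes mark sequencing runs and lines are group means. In the left panel 7 of 8 EAE libraries lie below all 3 naive libraries.

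Neither comparison passed the test after adjustment over the 4 share comparisons made, each by a two-sided exact permutation test. Between the genotypes in EAE the share of all nuclei was 1.02% ± 0.301 (SD, n = 4) in NestinCre and 1.27% ± 0.416 (SD, n = 4) in fl, exact permutation p = 0.429 and adjusted p = 0.429. This difference of -0.251 percentage points was -0.0508 without fl EAE 3, -0.162 without NestinCre EAE 1 and -0.167 without NestinCre EAE 2. The lineage share was 8.80% ± 1.46 in NestinCre EAE and 13.0% ± 3.28 in fl EAE (SD, n = 4 each), exact permutation p = 0.0571 and adjusted p = 0.0762, where the smallest p this design allows is 0.0286. The lineage difference of -4.22 percentage points was -2.64 without fl EAE 4. Within run 1 alone it was -2.53 (exact permutation p = 0.2), where that of all nuclei was -0.386 (exact permutation p = 0.3). With 3 against 3 libraries in run 1 this test could not reach 0.05 at any values, so it cannot decide there. Between states the share of all nuclei was 1.15% ± 0.362 (SD, n = 8) in EAE and 2.08% ± 0.277 (SD, n = 3) in naive libraries, exact permutation p = 0.0242 and adjusted p = 0.0762. The lineage share was 10.9% ± 3.25 in EAE and 16.4% ± 3.17 in naive libraries, exact permutation p = 0.0485 and adjusted p = 0.0762. Within run 2, the only run with both states, the mean of the EAE libraries lay 1.14 percentage points below the naive library for the share of all nuclei. For the lineage share the EAE libraries of run 2 lay on either side of the naive library, fl EAE 4 above it and NestinCre EAE 4 below it. Without fl naive 2, the internal control, the state difference was -0.787 percentage points of all nuclei and -7.14 of lineage nuclei (exact permutation p = 0.0889 for each). State and run cannot be fully told apart in this design.

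A gate on UMI counts depends on depth, so each nucleus was also thinned to 1000 UMIs and gated again, leaving out shallower nuclei (241 to 1722 per library, of which at most 1 per library was Enpp6-gated). Thinned shares were 0.0762% to 0.215% in the EAE libraries and 0.503% in fl naive 2, 0.216% in fl naive 3 and 0.241% in NestinCre naive 2. After thinning, fl naive 2 thus stood apart, and the other naive libraries lay just above the highest EAE library (exact permutation p = 0.0121 between states, not adjusted). Thinned lineage shares were 1.85% to 3.00% in fl EAE, 1.14% to 2.37% in NestinCre EAE and 2.92% to 3.96% in naive libraries. Here fl EAE 4 (2.48%) lay below all naive libraries, and fl EAE 1 (3.00%) lay above fl naive 3 (2.92%). Exact permutation p, not adjusted, was 0.0857 between genotypes and 0.0242 between states for this share. Enpp6 itself, summed over Enpp6-gated and mature-gate nuclei and so not dependent on the line between them, stood at 178 to 211 CPM in fl EAE, 125 to 195 CPM in NestinCre EAE and 219 to 229 CPM in the 3 naive libraries, a measure added after the values were seen and given with no test.

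The label was then checked against the genes of each stage. Of the Enpp6-gated nuclei, 95.6% held at least 3 UMIs of Mog, Mag and Mobp, the surface and structural proteins of myelin that the mature gate rests on. Of the other genes of the rule, 78.1% of the nuclei held no UMI of Tcf7l2, 90.0% none of Itpr2 and 98.5% none of Bmp4, a secreted ligand of the BMP family, at the depth given above. Fyn was at 0 in 58.7%, while Bcas1 was at 0 in only 12.3% and had 3 or more UMIs in 45.6%. Position between progenitor and mature cells was read per nucleus as the share of mature-list UMIs among the UMIs of a progenitor list (12 genes) and a mature list (17 genes), neither of which holds a gene of the gates. Its median was 96.8% in the Enpp6-gated nuclei, 97.0% in the mature gate and 2.21% in the progenitor gate, and by library it ranged from 96.2% to 97.8% in the Enpp6-gated nuclei. Only 6.40% of the nuclei with at least 10 UMIs of these lists lay between 20% and 80%. A list of newly formed oligodendrocyte genes outside the gates summed to 1232 CPM in the Enpp6-gated nuclei, 893 in the progenitor gate and 1154 in the mature gate. Of its 10 genes with at least 20 UMIs, 7 stood above both gates, 2 between them and 1 below both. A committed progenitor list summed to 232, 665 and 196 CPM. The mature-list share has only 2 ends and cannot place a stage outside them. By the progenitor and mature lists the bulk of the nuclei sat at the mature end, and they are not called newly formed below.

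The threshold on Enpp6 divided nuclei of similar mature-list share. Outside the threshold, 2331 nuclei met the other limits with 1 UMI of Enpp6, and inside it 1287 had 2 and 1380 had 3 or more. To reach 3 UMIs over the 6 genes, the nuclei outside needed more UMIs from Bcas1, Tcf7l2, Itpr2, Bmp4 and Fyn. The median mature-list share was 96.6%, 96.8% and 96.7% in these 3 steps, and Prr5l, a mature-list gene, stood at 1885, 2850 and 3487 CPM. Nuclei with at least 5 UMIs of Tcf7l2 and Itpr2 made up 2.70%, 1.86% and 4.49% of the 3 steps. Nuclei with at least 3 UMIs of Mog, Mag and Mobp made up 83.7%, 94.3% and 96.9%, and their part in the level of Prr5l was not tested.

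The Enpp6-gated nuclei held 3 kinds of nuclei, divided after their values were seen and therefore described with no test. First, 262 nuclei (9.82%) held at least 0.2% of their UMIs from a list of 7 neuronal genes, and 82.4% of these had a doublet score in the range left out as doublets. Of the 24 nuclei with 2 UMIs of Enpp6 and the 62 with 3 or more that had at least 5 UMIs of Tcf7l2 and Itpr2, 69 were outside this neuronal set (2.59% of all Enpp6-gated nuclei) and form the Tcf7l2/Itpr2-high set. The other 2336 nuclei (87.6%) were in neither set, with 5.99% in the doublet range and a median mature-list share of 97.1%.

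The 69 Tcf7l2/Itpr2-high nuclei were nearer to the profile that the label names. Their median mature-list share was 20%, with quartiles of 14.3% and 37.7%, between the progenitor gate and the mature gate. Pooled over libraries, Tcf7l2 stood at 1865 CPM in them and at 67.7 CPM in the other Enpp6-gated nuclei, and Itpr2 at 1254 and 18.5 CPM, the genes that defined them. Other genes of the rule, given as a description, were higher as well. Bcas1 stood at 3311 CPM against 687 CPM, Fyn, a kinase of the Src family, at 2647 against 146 CPM, and Bmp4 at 111 against 0.520 CPM. Of 5 genes of committed progenitors, all 5 were higher, among them Gpr17, a receptor found only for a short time in the lineage, at 144 against 1.77 CPM, and the sialidase Neu4 at 176 against 1.46 CPM. Of 12 progenitor-list genes, all 12 were higher, among them the extracellular matrix protein Tnr at 7567 against 100 CPM and the transcription factor Sox6 at 1596 against 14.3 CPM.

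Against the progenitor gate, these nuclei stood lower for Vcan, a proteoglycan of progenitors, at 492 against 1753 CPM, and for Lhfpl3 at 968 against 7532 CPM. Tnr was higher in them than in the progenitor gate, where it stood at 4432 CPM. On the other side, all 13 myelin genes and 16 of 17 mature-list genes were below the level of the other Enpp6-gated nuclei, with Mog, a surface protein of the myelin sheath, at 344 against 1024 CPM and Prr5l at 940 against 4033 CPM. The exception was Ptgds, the prostaglandin D2 synthase, at 389 against 306 CPM.

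**Figure D2:**
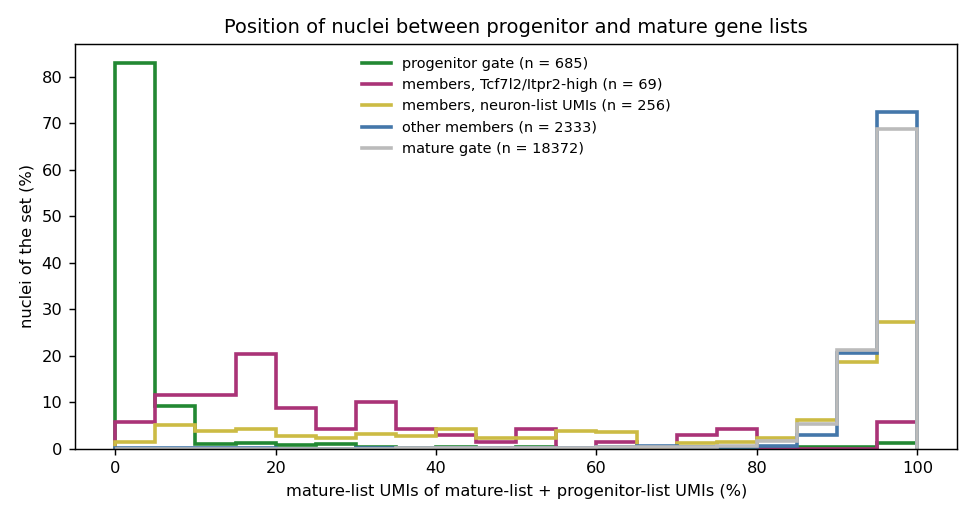
Distribution of single nuclei by the share of mature-list UMIs among mature-list and progenitor-list UMIs (x axis, percent), as the percent of nuclei of each set per bin (y axis), for nuclei with at least 10 such UMIs. The 69 Tcf7l2/Itpr2-high nuclei have a median of 20%, and the 2333 other members plotted follow the mature gate.

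Outside every fixed list, the genes furthest above both gates in these 69 nuclei, chosen for that, were Frmd4a, a FERM domain scaffold protein, at 10475 CPM against 764 in the progenitor gate and 317 in the mature gate, Tmem108 at 2406 against 405 and 210 CPM, and Pdcd4, an inhibitor of translation initiation, at 602 against 77.3 and 58.9 CPM. Further down the same order, Arhgap24, a GTPase-activating protein, stood at 1067 against 173 and 57.2 CPM and Nfasc, the neurofascin adhesion molecule, at 3091 against 218 and 769 CPM. Of the list of newly formed oligodendrocyte genes, 8 of the 10 with at least 20 UMIs were above the other Enpp6-gated nuclei, among them Ust, a sulfotransferase, at 2412 against 45.9 CPM, and the zinc transporter Tmem163 at 1122 against 58.5 CPM. Among Wnt pathway genes Tcf7l1 stood at 306 against 6.65 CPM, while Apc, a negative regulator of the pathway, stood at 326 against 590 CPM.

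Doublets and depth touched this set. Its median nucleus had 5522 UMIs, against 3538 in the other nuclei, and 36 of the 69 (52.2%) had a doublet score in the range left out as doublets. Lists of other cell types summed to 557 CPM against 500 CPM in the remaining nuclei for neurons, where both sets had been limited by this list, 336 against 314 CPM for astrocytes, 188 against 151 CPM for microglia and leukocytes, 9.88 against 11.3 CPM for vascular cells and 207 against 679 CPM for Schwann cells. The Schwann cell list also summed to 702 CPM in the mature gate and 202 CPM in the progenitor gate. The part of depth, doublets and other cell types in the profile was not tested.

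These nuclei were found in 10 of 11 libraries, with 5, 4, 10 and 3 of them in fl EAE 1 to 4. NestinCre EAE 1 to 4 held 0, 2, 3 and 5. The naive libraries held 17 and 7 in fl naive 2 and 3 and 13 in NestinCre naive, so 37 of the 69 came from 3 naive libraries and 32 from 8 EAE libraries. As shares of all nuclei this was 0.0320% ± 0.0174 (SD, n = 4) in fl EAE, 0.0141% ± 0.0107 (SD, n = 4) in NestinCre EAE and 0.0712% ± 0.0257 (SD, n = 3) in naive libraries. The count of 0 in NestinCre EAE 1 allows a share of up to 0.0225% by the limit of 3 counts, and the exact 95% interval drawn in the plot of shares ends at 0.0276%. The naive and fl EAE ranges overlapped in fl EAE 3 (0.0563%) and fl naive 3 (0.0416%).

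**Figure D3:**
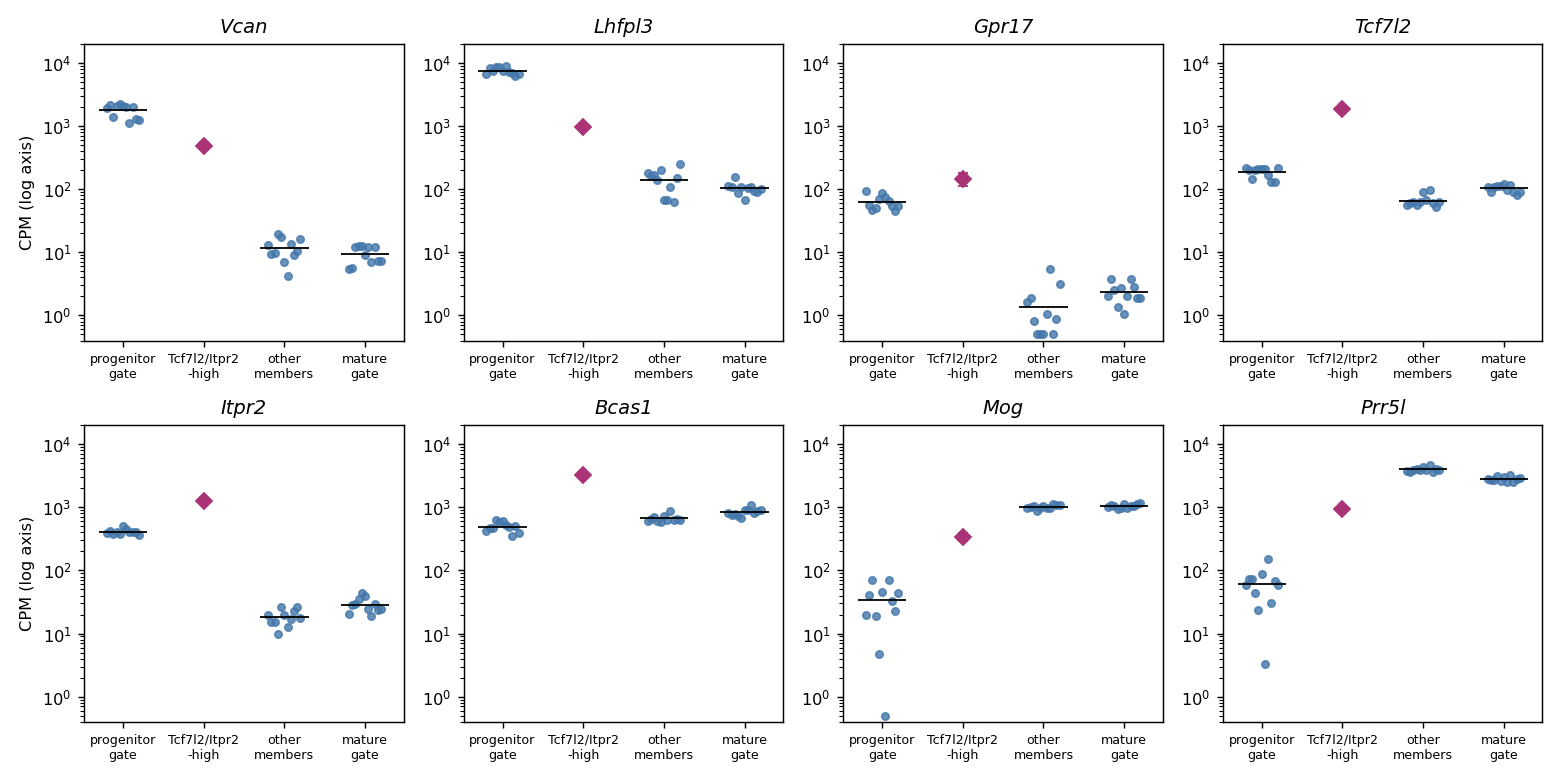
Levels (CPM, log axis) of 8 stage genes in the progenitor gate, the Tcf7l2/Itpr2-high nuclei, the other members (neuronal set left out) and the mature gate. Circles are the 11 libraries with their mean as a line, with values under 0.5 CPM drawn at 0.5, and diamonds are the 69 high nuclei pooled with an exact 95% Poisson interval. Tcf7l2, Itpr2 and Bcas1 are highest in the high nuclei, while Mog and Prr5l are lowest in the progenitor gate.

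The remaining 2336 nuclei carried the summed myelin list near the level of the mature gate, at 15168 to 18753 CPM by library against 14767 to 18000 CPM. Single genes of the myelin, mature and growth factor receptor lists differed, lower or higher. Mog stood at 875 to 1108 CPM over the 11 libraries against 955 to 1179 CPM in the mature gate. Opalin, a membrane protein of myelinating oligodendrocytes, did not overlap, at 4.40 to 124 CPM against 134 to 513 CPM. The alarmin Il33 stood at 15.4 to 63.4 against 257 to 452 CPM, Ptgds at 147 to 453 against 615 to 3091 CPM and the neuregulin receptor Erbb4 at 568 to 879 against 1733 to 2639 CPM, each lower in every library. Klk6, a secreted protease of oligodendrocytes, was higher in every library, at 52.6 to 132 against 12.0 to 35.8 CPM, and Anln, a protein of the septin scaffold, stood at 776 to 1358 against 353 to 771 CPM. The newly formed list summed to 897 to 1215 CPM by library against 911 to 1393 CPM in the mature gate, with overlap. These contrasts belong to the rule's own separation of the nuclei by Enpp6 and were not tested.

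A wider search named the 20 genes outside every list with the largest ratio of Enpp6-gated nuclei to the higher of the progenitor and mature gates, out of 853 genes above both in at least 9 of 11 libraries with at least 20 UMIs. Hmcn1, an extracellular matrix protein of the hemicentin family, led with 108 CPM against 7.17 in the progenitor gate and 9.01 in the mature gate, a ratio of 3.02 on the log2 (CPM + 5) scale. By library Hmcn1 in Enpp6-gated nuclei ranged from 39.9 to 170 CPM with a median of 77.1 CPM, lowest in NestinCre EAE 1 and highest in fl naive 3, and all 11 libraries were above both gates. Tenm4, a teneurin adhesion protein, came next at 499 against 105 and 99.9 CPM. Tenm4 was among 4 of the 20 genes that stood higher in the neuronal set than in the remaining nuclei, at 787 against 420 CPM. Aff3, a nuclear protein, stood at 489 against 123 and 134 CPM and the clock transcription factor Arntl2 at 56.8 against 12.5 and 11.7 CPM. The aspartyl protease Bace2 stood at 48.8 against 1.56 and 11.3 CPM, the mechanically gated channel Piezo2 at 155 against 12.5 and 46.1 CPM and the basement membrane protein Nid1 at 28.9 against 3.12 and 6.18 CPM. Lower in the order, the contactin Cntn3 stood at 832 against 161 and 298 CPM and the adhesion receptor Adgrg6, the last of the 20, at 29.8 against 1.25 and 7.96 CPM. The others were Art3, Lmo7, Rgs6, Slc9b2, Rps6ka2, Greb1l, Sdk2, Il1rapl2, Clgn, Slc13a3 and Rapgef5.

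The 20 genes were chosen for standing above both gates in the Enpp6-gated nuclei, and 87.6% of these are the remaining nuclei. The next count was therefore largely set by the choice and is a description. Of these 20 genes, 18 stood above the mature gate in all 11 libraries when only the 2336 remaining nuclei were taken, with Cntn3 at 812 to 1395 CPM against 232 to 405 CPM and Aff3 at 473 to 639 against 103 to 167 CPM. Rgs6, a regulator of G protein signalling, and Il1rapl2, a synaptic adhesion protein, were the other two and came from the neuronal set, at 702 and 572 CPM there against 33.2 and 20.4 CPM in the remaining nuclei. Along the steps of 1, 2 and 3 or more UMIs of Enpp6, 16 of the 20 rose at each step, as Hmcn1 did from 17.1 to 45.3 and 159 CPM and Art3, a member of the ADP-ribosyltransferase family, from 24.5 to 51.0 and 102 CPM. Both gates were limited to at most 1 UMI of Enpp6, so this rise was largely built into the choice of genes and is a description. Only 2 of the 20 were higher in the Tcf7l2/Itpr2-high nuclei than in the remaining ones, where Hmcn1 stood at 111 and 123 CPM and Cntn3 at 209 and 976 CPM.

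**Figure D4:**
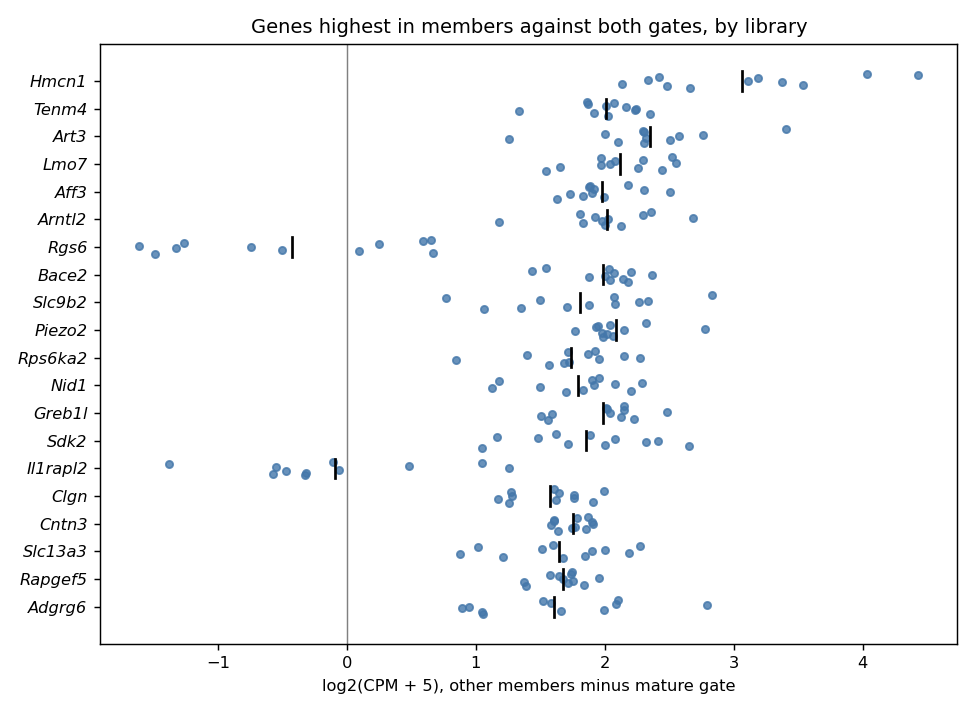
Difference between the remaining members (outside the high and neuronal sets) and the mature gate in log2 (CPM + 5) for the 20 named genes, each point a library and each bar the mean of 11 libraries. All points lie above 0 for 18 genes, and Rgs6 and Il1rapl2 straddle 0. The genes were chosen for standing above both gates in all members, so this is a description.

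None of these 20 genes passed the test between genotypes in EAE or between states (edgeR adjusted p of at least 0.327 and 0.453). Over all genes tested 0.0894% were called between genotypes and 0% between states, so this is no result about the 20 genes. Their median log2 difference between genotypes was -0.13, beside -0.00 over all 10071 genes tested, and 8 were positive.

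Between NestinCre EAE and fl EAE, 9 genes of the Enpp6-gated nuclei rose and none fell among 10071 tested (edgeR quasi-likelihood test on UMIs summed per library with run in the model, Benjamini-Hochberg adjusted p under 0.05), which is 0.0894% higher and 0% lower, with 732 genes at an unadjusted p under 0.05. DESeq2 called 55 genes higher and 10 lower, the 9 among them. The count depended on single libraries, from 1 without fl EAE 2 or NestinCre EAE 3 to 56 (27 higher and 29 lower) without fl EAE 4, and it was 25 higher and 24 lower without NestinCre EAE 4 and 20 higher and 22 lower in run 1 only. Beside this, the microglia and leukocyte markers of the fixed list summed to 99.9 to 142 CPM in fl EAE and 107 to 221 CPM in NestinCre EAE. Of these 8 markers the T cell gene Cd3e was at 0 in all libraries, Lyz2 had a log2 difference of 2.83 ± 0.59 (SE, edgeR adjusted p = 0.0830), and none of the 6 tested passed. The vascular list, with too few UMIs for any of its 4 genes to be tested, summed to 0.787 to 8.37 CPM in fl EAE and 6.23 to 41.6 CPM in NestinCre EAE, and the Schwann cell list to 509 to 705 and 614 to 849 CPM. Of the Schwann cell list only 1 gene was tested, and over all libraries the list stood at 702 CPM in the mature gate. The astrocyte list summed to 174 to 405 and 206 to 292 CPM and the neuronal list to 1060 to 1468 and 830 to 1536 CPM. The part of these cell types in the result was not tested.

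C4b, a complement component (ENSMUSG00000073418, GRCm39 chromosome 17, 34947354 to 34962912, minus strand), stood at 15.8, 21.7, 44.1 and 35.4 CPM in fl EAE 1 to 4. In NestinCre EAE 1 to 4 it stood at 288, 194, 225 and 185 CPM. Each NestinCre library was above each fl library by a wide gap, and the naive libraries, at 15.7, 27.9 and 6.07 CPM, lay in the range of fl EAE or below. The log2 difference was 2.84 ± 0.27 (SE, edgeR adjusted p = 0.00101), and C4b was the only gene of the 9 that passed the test whichever library was left out.

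Nlrc5, the transactivator of MHC class I genes, stood at 2.11, 8.13, 34.0 and 17.3 CPM in fl EAE 1 to 4 and at 183, 92.2, 121 and 116 CPM in the NestinCre libraries in the order of their numbers, a log2 difference of 2.84 ± 0.42 (SE, edgeR adjusted p = 0.0274). The immunity-related GTPase Irgm2 stood at 0, 1.35, 10.6 and 1.57 CPM and at 109, 27.1, 83.3 and 77.5 CPM, a log2 difference of 4.06 ± 0.57 (SE, edgeR adjusted p = 0.0202). In both genes fl EAE 3 was the highest of its group and NestinCre EAE 2 the lowest of its own, with no overlap. Both differences were larger without fl EAE 3, at a log2 difference of 3.71 for Nlrc5 and 6.02 for Irgm2.

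Of the others, the ubiquitin ligase Herc6 (log2 difference 2.79), the ADP-ribosyltransferase Parp12 (2.26), the interferon-inducible Ifi27 (1.21) and the lipid transporter Abca8a (1.75) had no overlap between the groups. Genes called between these groups are largely set to separate them, so the lack of overlap is a description. Of all genes tested, 2.16% had every NestinCre EAE library above every fl EAE library. Abca8a stood at 22.1 to 67.7 CPM in fl EAE and 109 to 162 CPM in NestinCre EAE. A further call, n-R5s162 (2.31), is a 5S ribosomal RNA gene on chromosome 6 with many near-identical copies, its reads may be split between copies, and NestinCre EAE 4 (14.5 CPM) overlapped fl EAE (3.16 to 16.3 CPM). Herc6, Nlrc5, Irgm2 and Ifi27 lost the call without fl EAE 2, NestinCre EAE 1 or NestinCre EAE 3, and Parp12 without fl EAE 2 or NestinCre EAE 3. Abca8a and n-R5s162 lost it without fl EAE 2, fl EAE 3, NestinCre EAE 1 or NestinCre EAE 3, Abca8a also with the replicate block (edgeR adjusted p = 0.0533) and n-R5s162 with no run covariate (edgeR adjusted p = 0.0983).

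**Figure D5:**
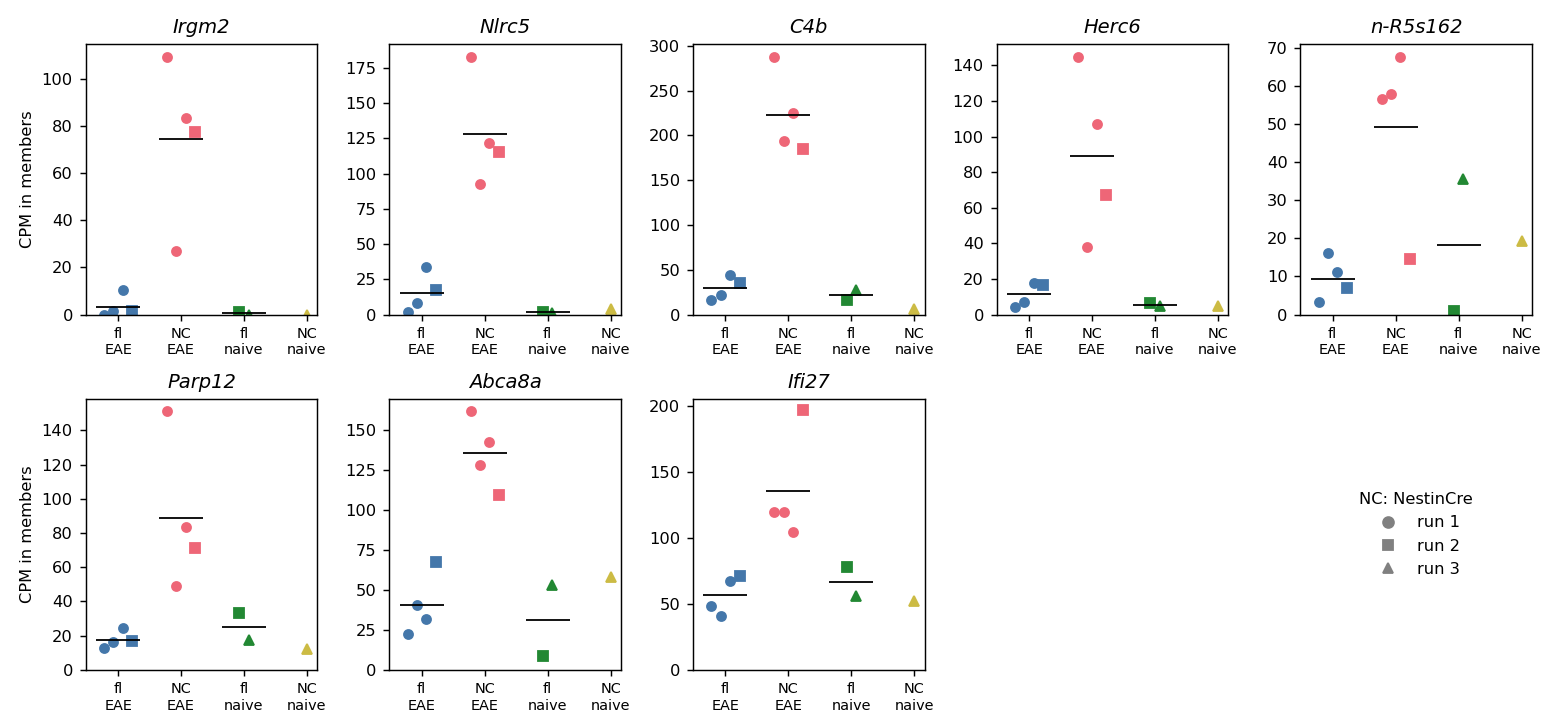
CPM in Enpp6-gated nuclei of 8 genes called between genotypes in EAE, each point a library, lines the group means and shapes the sequencing runs. In 7 of the 8 panels all NestinCre EAE libraries lie above all fl EAE libraries, as in 2.16% of all genes tested, and n-R5s162 overlaps. The genes were chosen for differing between these groups, so this is a description.

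The fixed list of 18 interferon-inducible and MHC class I genes had 16 members that passed the filter on low counts, and 3 of these were called, all higher, C4b and Nlrc5 among them. All 16 had a positive log2 difference, with a median of 2.90 beside -0.00 over all genes tested. Some of them were at few UMIs in fl EAE, such as Tap1 at 0 to 2.79 CPM, and a gene that passed the filter through the libraries in which it is high had to differ, so this count and median are a description and no support. In 9 of the 16 every NestinCre EAE library was above every fl EAE library, where 2.16% of all genes tested were. The same limit holds for this count, which is a description and no support. The first 9 genes of this list were picked by the study on these samples, so it is not independent evidence of a direction. Among those not called, B2m, the light chain of MHC class I, had a log2 difference of 3.13 ± 0.55 (SE, edgeR adjusted p = 0.0556), the heavy chain H2-K1 2.77 ± 0.48 (SE, edgeR adjusted p = 0.0556) and the peptide transporter Tap1 4.14 ± 0.80 (SE, edgeR adjusted p = 0.0778). H2-Q7 and Psmb8 were not tested, at 0 to 0.787 and 0 to 6.14 CPM in fl EAE and 1.81 to 14.7 and 3.62 to 16.8 CPM in NestinCre EAE. Genes of the H2, Gbp and Irgm families and C4b have close paralogs, between which reads may be split.

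Summed over the list, the level in fl EAE 1 to 4 was 76.9, 119, 300 and 146 CPM. In the 4 NestinCre EAE libraries it was 1852, 611, 1194 and 1272 CPM. The naive libraries stood at 83.8, 101 and 76.7 CPM, the NestinCre naive library the lowest. The lowest NestinCre EAE library was thus above the highest library of any other group, and within fl EAE libraries 1, 2 and 4 lay closer to the naive ones than fl EAE 3.

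In the mature gate all 18 list genes were called higher in NestinCre EAE, with a median log2 difference of 3.54, where 2.19% of all 12919 genes tested there were. The study picked the first 9 list genes on these samples, and genes low in fl EAE could pass the filter through the NestinCre EAE libraries. The count in the mature gate is therefore a description and no support. In the progenitor gate, with fewer nuclei, 9 of the 18 passed the filter and were called higher, where 0.348% of 6329 genes were, but a gene that passed through the libraries in which it is high had to differ there too, so this count is a description and no support. A test of the difference itself, the genotype effect in Enpp6-gated nuclei minus that in the mature gate, called 0 of 10874 genes (0%) by edgeR, with 526 at an unadjusted p under 0.05 and 0 by DESeq2. For the list genes this difference ranged from -1.59 to 0.22 on the log2 scale with 15 of 18 negative, and it was -0.65 ± 0.28 (SE) for C4b and -0.96 ± 0.28 (SE) for H2-D1, the lowest edgeR adjusted p being 0.788. The same test against the progenitor gate called 0 genes (0%), with 719 at an unadjusted p under 0.05 and 0 by DESeq2. Granule neuron nuclei of the same NestinCre EAE libraries held C4b at 8.94 to 22.5 CPM, where Enpp6-gated nuclei held 185 to 288 CPM.

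The stage genes did not pass between genotypes. Of the 12 progenitor-list genes 0 were called and 10 were negative, with a median log2 difference of -0.52, of the 13 myelin genes 0 were called and 10 were positive (median 0.13), and of the 17 mature-list genes 0 were called and 15 were positive (median 0.30). Beside this, the Tcf7l2/Itpr2-high nuclei, in which progenitor-list genes were higher, were 22 of 880 Enpp6-gated nuclei in fl EAE and 10 of 697 in NestinCre EAE, with none in NestinCre EAE 1, and their part in these values was not tested. The premyelinating genes belong to the rule, so their levels are a description. Bcas1 stood at 509 to 712 CPM in fl EAE and 572 to 659 CPM in NestinCre EAE, Tcf7l2 at 105 to 264 and 48.3 to 152 CPM, and Fyn at 208 to 272 and 155 to 209 CPM, and for each of them the groups overlapped. In the remaining nuclei, outside the high and neuronal sets, Tcf7l2 stood at 55.7 to 67.9 CPM in fl EAE and 56.1 to 89.9 CPM in NestinCre EAE. Of the 10 transcription factors of the lineage 0 were called, among them Sox10 (0.11 ± 0.17, SE) and Myrf, which drives myelin genes (0.33 ± 0.18, SE). The same count was 0 of 11 for cholesterol and fatty acid synthesis, 0 of 7 for Wnt, 0 of 5 for BMP and Notch, 0 of 7 for growth factor receptors and 0 of 4 for cell death genes. With 0.0894% of all genes called, a count of 0 in lists of this size is no result about the lists. The 8 cell division genes were not tested, and they summed to 4.20 to 16.3 CPM in Enpp6-gated nuclei.

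The interleukin-12 receptor chains were scarce. Il12rb1 stood at 3.16, 2.71, 6.14 and 7.87 CPM in fl EAE 1 to 4, at 44.1, 9.04, 16.9 and 16.6 CPM in the 4 NestinCre EAE libraries and at 3.14 to 3.31 CPM in naive libraries. The EAE groups did not overlap, and the log2 difference of 1.92 ± 0.52 (SE) missed the threshold (edgeR adjusted p = 0.247), while in the mature gate it was 1.98 ± 0.30 (SE, edgeR adjusted p = 0.00402). Il12rb2, the targeted gene, stood at 2.71 to 9.49 CPM in fl EAE, 0 to 21.0 CPM in NestinCre EAE and 4.54 to 6.07 CPM in naive libraries, too low to be tested. At 1000 UMIs per nucleus a UMI of Il12rb2 was found in 0.225% of Enpp6-gated nuclei and in 1.65% of granule neuron nuclei, and a UMI of Il12rb1 in 0.789% and 0.0776%. Within the Enpp6-gated nuclei, Il12rb2 was found in 0.766% of the neuronal set and 0.171% of the remaining nuclei. At full depth these shares were 9.92% and 1.11%, so the levels of Il12rb2 above draw in part on the neuronal set. These 3′ counts include introns and transcripts outside the deleted part, so they do not check the deletion.

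Between EAE and naive libraries edgeR called 0 of 12437 genes (0%) with genotype and run in the model, with 714 at an unadjusted p under 0.05, and DESeq2 called 13 higher and 4 lower. This comparison rests on 1 naive library in the shared run, the internal control named above, and could not be fitted with run without it. Of the 5 genes of committed progenitors all 5 were negative, with a median log2 difference of -1.59 beside 0.00 over all genes, led by Neu4 at -3.58 ± 0.84 (SE, edgeR adjusted p = 0.326). The Tcf7l2/Itpr2-high nuclei held 73 of the 97 UMIs of Gpr17 and 89 of the 109 of Neu4 in all Enpp6-gated nuclei, though 829 of the 2318 of Tns3, and those nuclei made up 3.37% ± 1.02 (SD, n = 3) of the Enpp6-gated nuclei in naive and 1.85% ± 0.961 (SD, n = 8) in EAE libraries. Their part in these values was not tested. The interferon list had 17 of 18 positive and a median of 2.36, with 0 called. List genes could again pass the filter through the libraries in which they are high, so this count and median are a description and no support. Of the sums given above, those of the NestinCre EAE libraries were the highest at 611 to 1852 CPM, while fl EAE 1 (76.9 CPM) lay within the naive range of 76.7 to 101 CPM and fl EAE 2, 3 and 4 (119, 300 and 146 CPM) lay above it. Without run in the model the medians of the committed and interferon lists were -1.09 and 3.50. Myelin (median -0.12) and mature-list (-0.01) genes stayed near 0 with 0 called of 13 and of 17.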

How the data were processed

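Single-nucleus libraries (11) were prepared by the authors with 10x 3′ chemistry. The deposited matrices hold raw UMI counts per gene and barcode, with no normalization, after the authors' cell calling. Cell Ranger version 6.0.2 and GRCm39 are named in the submitters' processing notes, and the file headers name 7.0.0 in 6 files (run 1) and 6.0.2 in 5. The run of each library is its sequencing batch in the labels. According to the study's methods, intronic reads were counted. Nuclei with at least 500 genes and under 5% mitochondrial UMIs were gated as described in the report. Doublets were scored per library by an own implementation of the Scrublet method, and the highest-scoring 0.8% per 1000 barcodes were left out as an alternative only. Members and gene lists were chosen with earlier results of these data known.

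UMIs were summed per library and gate, since nuclei of 1 library are not replicates, and tested in R 4.3.3 (edgeR 4.0.16) with the quasi-likelihood test, TMM scaling and filterByExpr, run being a covariate and genotype another one between states, with DESeq2 1.42.0 as an alternative. The lone NestinCre naive library was assumed to vary like the others. Shares were compared by exact permutation over all 70 or 165 assignments. Intervals are exact Clopper-Pearson or Poisson at 95% and cover counting error only, and a count of 0 was given the limit of 3 counts. Genes were named by rule: the genes of the gate, up to 4 genes per list by level, up to 10 called genes per comparison, 20 genes highest against both gates, and both receptor chains. Genes named in the Tcf7l2/Itpr2-high nuclei and in their contrast with the remaining nuclei were chosen after their values were seen. Other alternatives were filters, doublets, thinning, run and single libraries. Values of some genes are not reported here. Coordinates are from GENCODE vM39. Scripts used Python 3.11.15 with matplotlib 3.10.9, pandas 2.3.3, scipy 1.17.1 and numpy 2.4.6, and the tests were checked on simulated data.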

Additional observations from a re-analysis of the deposited data

Results flagged for a closer look

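In 3 of 34 groups of 4 libraries examined, 1 library lay far from the others of its group, where chance gives about 1 in 20. Irgm2, the immunity-related GTPase, stood at 10.6 CPM in fl EAE 3 against 0 to 1.57 CPM in the other fl EAE libraries. Ifi27, an interferon-inducible gene, stood at 197 CPM in NestinCre EAE 4 against 105 to 120 CPM in the other NestinCre EAE libraries. The summed progenitor list stood at 1116 CPM in NestinCre EAE 1, which held 101 Enpp6-gated nuclei and none of the Tcf7l2/Itpr2-high nuclei, against 1841 to 1935 CPM in the other NestinCre EAE libraries.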

How the results depend on the processing

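No share difference and no log2 difference of the 9 called genes or of Il12rb1 changed sign, but calls between genotypes, all higher at first, were about even in direction in run 1 only and without either replicate 4. The genotype difference in the lineage share passed the unadjusted threshold with nuclei with over 0.3% of UMIs from other cell types' lists left out (-4.23 points, exact permutation p = 0.0286). Over single libraries left out it ranged from -5.11 to -2.64 points, that of all nuclei from -0.371 to -0.0508. The state difference in the share of all nuclei lost the unadjusted threshold without fl naive 2 and without NestinCre naive 2. It ranged from -1.06 to -0.787 points over single libraries left out. In fl libraries only it was -0.829 points, where 4 against 2 libraries could not reach the threshold at any values. In the lineage share the state difference lost it with doublets left out (-4.72) and with 5 or more UMIs of the 6 genes (-4.73). It also did so with 3 or more UMIs of Enpp6 (-3.48) and without any library other than fl EAE 4 (-7.14 to -3.97). With fl libraries only it was -1.87, under the same limit, and in run 2 only -0.0454, a value added after seeing the data. Genes called between genotypes numbered 65 by DESeq2, 43 with at least 10 counts in all, 35 with doublets left out, 34 with other-type nuclei left out, 15 with no run covariate, 42 (20 higher, 22 lower) in run 1 only and 1 to 56 over single libraries left out, 1 without fl EAE 2 or NestinCre EAE 3, 3 without NestinCre EAE 1, 23 without fl EAE 3, 37 without NestinCre EAE 2, 49 without NestinCre EAE 4 and 56 (27 higher, 29 lower) without fl EAE 4. In the remaining nuclei alone, a setting added after seeing the data, 9 genes were called, the 9 of all Enpp6-gated nuclei. Replicate numbers, with number 4 taken from the shared run since those labels carry none, did not pair the libraries: same-numbered libraries correlated at -0.109 to 0.0755 and others at -0.0879 to 0.207, and 2 of 4 fl libraries correlated best with their own number. With the replicate block 17 genes were called, 16 higher, and the share differences had exact sign-flip p = 0.375 and 0.125, the latter the smallest it allows. Between states 17 genes were called by DESeq2, 3 with at least 10 counts, 8 with doublets left out, 5 with other-type nuclei left out, 5 with no run covariate, 5 in the remaining nuclei (added after seeing the data) and 0 to 5 over single libraries left out, with 5 without NestinCre EAE 1. Without fl naive 2 the fit with run could not be made. Differences of the genotype effect from the mature gate numbered 0 to 1 over single libraries left out, 1 without fl EAE 3 or 4, and from the progenitor gate 0 to 9, with 1 without NestinCre EAE 3, 9 without fl EAE 4, 10 with at least 10 counts and 1 with other-type nuclei left out. The cause of these changes was not tested. The 69 high nuclei, at 0 to 17 per library, limit what can be said of them by group.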
